A study of Mus musculus with 12 samples.

Results

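The acute phase proteins examined here are a list of 32, most of them plasma or stress proteins of the liver. Of these 26 are listed as positive members, a class that as a rule rises in inflammation. The other 6 are listed as negative members, a class that as a rule falls. The class of a member is that of the list and not a known response of each gene. Saa4, for example, is the constitutive serum amyloid A, and not every inter-alpha-trypsin inhibitor chain is known to rise. Their genes were taken by symbol from the 31053 gene rows of the count table, and all 32 were found. Poly(A) RNA was sequenced from freshly isolated hepatocytes of 12 C57BL/6J mice aged 3 months, 3 in each of 4 groups. Control mice (GFP mice) had received AAV8-TBG-eGFP by the tail vein and P16 mice AAV8-TBG-eGFP-P16, so every mouse carried an AAV8 vector with eGFP. Livers were perfused from mice with no surgery (0 h), or 48 h after 70% partial hepatectomy that followed the vector by 1 week. The TBG promoter is active in hepatocytes, so P16, an inhibitor of the cyclin D kinases encoded by Cdkn2a, was raised in that cell type by overexpression and not by ageing. The mice with no surgery are not sham-operated controls, so surgery and loss of liver mass cannot be told apart.

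The acute phase response is the change in plasma protein synthesis with which hepatocytes answer injury and infection. Interleukin-6 acts through gp130 and STAT3, and interleukin-1 through NF-kB and C/EBP factors. They raise the inducible serum amyloid A, the acid glycoproteins, haptoglobin, hemopexin, pentraxins and some inter-alpha-trypsin inhibitor chains. Synthesis of albumin, transthyretin, retinol binding protein and fetuins falls at the same time. In the mouse, serum amyloid A and serum amyloid P are the strong reactants, whereas C-reactive protein, a strong reactant in humans, responds weakly.

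Libraries held 14617049 to 25409451 reads in genes, and 7.02 to 14.6% of them lay in the 32 members. Cdkn2a, the gene carried by the P16 vector, had 105 to 620 reads in every P16 library and at most 5 in any GFP library. Summed levels of 10 hepatocyte markers were 26370 to 32282 library-size-scaled counts (CPM) at 0 h and 14386 to 17657 at 48 h. At most 216 CPM were reached by 13 macrophage markers and 146 by 10 endothelial markers. In the tests described below, 8 of the 10 hepatocyte markers were lower at 48 h in GFP mice and 5 in P16 mice (16.4% and 19% of all genes). Apoa1 and Serpina1c are also in the list below of 14 genes known or thought to fall in inflammation. The sum is therefore no count of hepatocytes. The 8 stellate cell markers summed to at most 61.9 CPM, the 7 cholangiocyte markers, with Cftr at 0 reads in all libraries, to 25.5, the 8 lymphocyte markers to 3.80 and the 12 neutrophil markers, with Retnlg at 0, to 3.18. The macrophage sum was highest in replicate 2 of the GFP group at 0 h (216 CPM, with 43.1 and 102 in the other mice of the group), where the endothelial sum was also highest, and it was at most 48.0 in P16 mice at 0 h. In cells prepared in bulk, more RNA of a gene per cell and more cells making it cannot be told apart.

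Of the 32 members, 25 had an entry among the RefSeq promoter sequences (GRCm38.p6), and the 250 bases before the first listed start of each were searched on both strands for 3 short motifs. TTGCNNAA, which C/EBP factors can bind, was in 13 of these windows (52%), against 9.56% of 32851 windows of all genes. Members gave 1 window each, whereas the background holds every listed window of a gene. The motif was in 11 of 21 positive and 2 of 4 negative members (Alb and Ahsg). The positive ones were Itih2, Lcn2, Orm2, Orm3, Steap4, Saa1, Saa2, Saa3, Saa4, Hpx and Mt2, some of them near copies. TTCNNNGAA, a core bound by STAT proteins, was in 3 (12%), against 7.02%. An NF-kB core, GGG and TTCC with 3 bases between them, was in 3 (12%), against 4.65%. The STAT core was in the windows of Apcs, Steap4 and Itih4, and the NF-kB core in those of Steap4, Fetub and Lrg1. A match is only a match of letters and not a bound site. The windows below show 3 pairs of neighbouring genes whose members behaved alike (Saa1 and Saa2) or unlike (Orm2 and Orm3, Apcs and Crp) in the data that follow. They are written 5′ to 3′ towards the gene, bases inside the annotated gene are left off (43 for Saa2 and 1 for Crp), and capitals mark a motif match.
Saa1 (chr7:46742981-46743230, minus strand): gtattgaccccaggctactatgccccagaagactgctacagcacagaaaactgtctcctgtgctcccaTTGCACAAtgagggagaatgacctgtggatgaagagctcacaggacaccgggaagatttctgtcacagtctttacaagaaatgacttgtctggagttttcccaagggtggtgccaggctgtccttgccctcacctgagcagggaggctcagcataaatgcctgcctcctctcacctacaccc
Saa2 (chr7:46751583-46751789, plus strand): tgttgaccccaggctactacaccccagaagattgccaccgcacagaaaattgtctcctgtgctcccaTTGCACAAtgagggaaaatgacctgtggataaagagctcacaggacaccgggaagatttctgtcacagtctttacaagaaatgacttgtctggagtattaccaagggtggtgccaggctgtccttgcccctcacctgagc
Orm2 (chr4:63362199-63362448, plus strand): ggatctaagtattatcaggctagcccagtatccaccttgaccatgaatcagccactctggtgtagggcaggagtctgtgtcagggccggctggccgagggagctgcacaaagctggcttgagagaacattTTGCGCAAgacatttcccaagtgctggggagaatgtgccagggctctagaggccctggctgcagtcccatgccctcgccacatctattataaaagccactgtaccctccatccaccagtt
Orm3 (chr4:63355908-63356157, plus strand): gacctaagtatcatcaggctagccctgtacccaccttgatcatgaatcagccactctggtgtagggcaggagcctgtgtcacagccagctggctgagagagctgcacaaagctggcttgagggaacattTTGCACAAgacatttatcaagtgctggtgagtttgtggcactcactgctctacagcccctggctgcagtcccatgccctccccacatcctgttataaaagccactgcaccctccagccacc
Apcs (chr1:172895055-172895304, minus strand): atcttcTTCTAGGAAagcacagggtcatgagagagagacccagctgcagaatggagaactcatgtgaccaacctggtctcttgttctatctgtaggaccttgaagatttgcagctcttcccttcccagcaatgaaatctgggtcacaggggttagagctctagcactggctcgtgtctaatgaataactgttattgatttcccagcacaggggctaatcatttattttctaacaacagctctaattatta
Crp (chr1:172697806-172698054, plus strand): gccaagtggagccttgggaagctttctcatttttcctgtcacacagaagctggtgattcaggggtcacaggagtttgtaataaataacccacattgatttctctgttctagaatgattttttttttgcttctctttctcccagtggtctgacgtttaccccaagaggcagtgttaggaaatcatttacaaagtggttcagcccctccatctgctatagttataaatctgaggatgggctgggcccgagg
Saa1 and Saa2 carry TTGCACAA at 182 and 183 bases before the first RefSeq start respectively, and their 250-base windows were 96.0% identical over 247 aligned bases. Orm2 has TTGCGCAA and Orm3 TTGCACAA at nearly the same place, 120 and 121 bases before the start, in windows that were 89.4% identical. In Apcs the capitals mark a STAT core, TTCTAGGAA, and the Crp window held none of the 3 motifs.

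Compared per length (mean CPM per kilobase of exon), Alb was the most abundant member in every group, at 24717 in GFP mice at 0 h and 25071 in P16 mice at 48 h. Ttr, Hpx, Hp, Rbp4 and Ahsg filled the next 5 ranks in GFP mice at 0 h, at 2722 to 6846 CPM per kilobase. In P16 mice at 48 h the next were Hpx at 8648, Orm1 at 6421 and Hp at 5067, ahead of Ttr at 3638. The length used is the union of all annotated exons, 2478 bases for Saa1 and 2518 for Saa2. Their longest coding transcripts have only 609 and 652 bases, whereas Orm1 has 775 by both measures. On transcript length Saa1 and Saa2 would stand higher, so the order of members depends on the length used. Il1rn, Cd14 and Mt2 were among the lowest 4 members in every group, under 5 CPM per kilobase. Levels below are CPM on library sizes scaled by TMM, given for replicates 1, 2 and 3 of a group in that order. Fold changes (log2) with their standard error (SE) and Benjamini-Hochberg adjusted p come from the edgeR quasi-likelihood test over 12257 genes, and a gene was called at an adjusted p under 0.05.

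**Figure D1:**
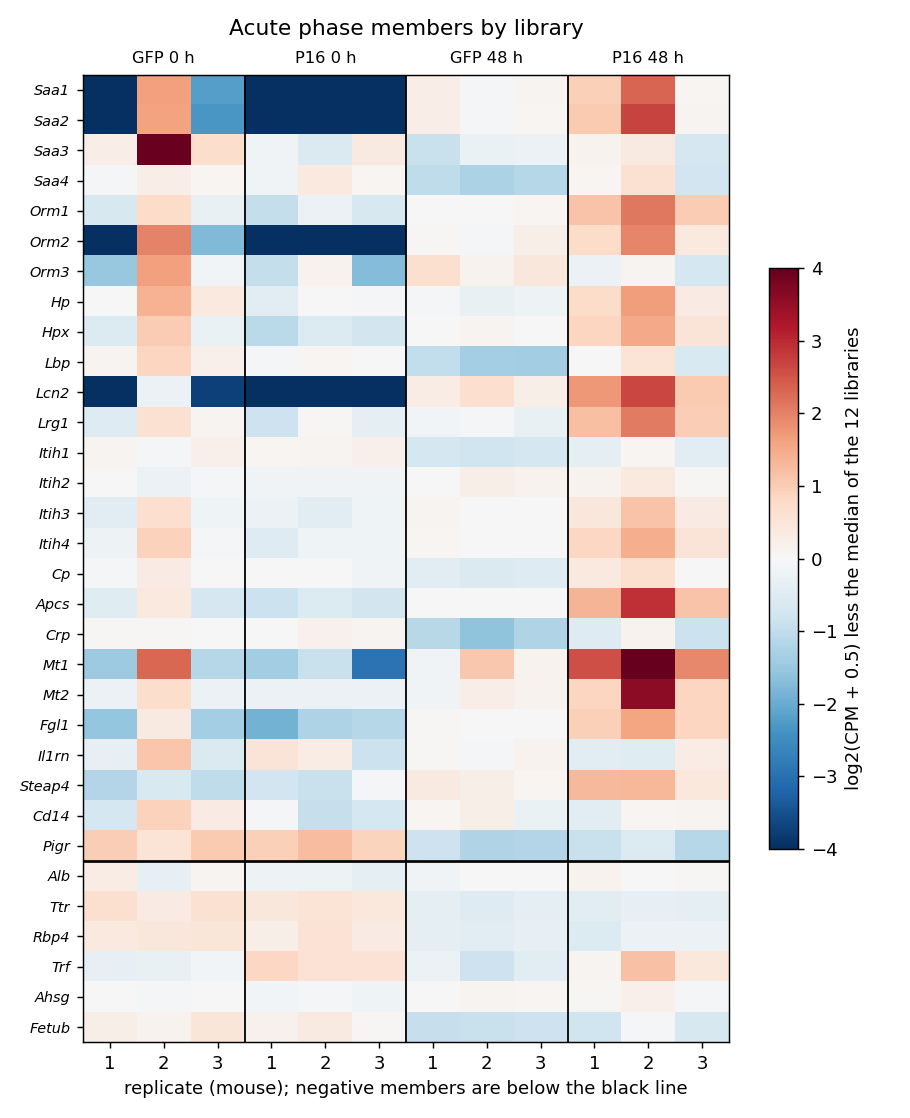
Heat map of log2(CPM + 0.5) of the 32 members in each of the 12 libraries, less the median of the gene over all libraries; colours saturate at 4 and -4. Replicate 2 of GFP mice at 0 h and replicate 2 of P16 mice at 48 h are red for most positive members.

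Before any comparison of groups, 2 single libraries stood apart. In GFP mice at 0 h, replicate 2 was the highest of its group in 23 of 26 positive members, and above both other mice by over 1.5 times in 18. In P16 mice at 48 h, replicate 2 was highest in 24 of 26 and above both others by over 1.5 times in 15, and 23 members followed the order replicate 2, 1, 3. Over all 12 libraries the maximum lay in that P16 library for 17 positive members and in that GFP library for 6. The negative members had no such pattern at 0 h, where the GFP replicate 2 was lowest of its group in 4 of 6 and highest in 0. In P16 mice at 48 h replicate 2 was highest for 5 of 6. What sets these libraries apart was not tested. Both were picked by the values of the positive members themselves. Leaving them out narrows the spread of those members by that choice, so the resulting calls are not independent support.

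After hepatectomy the arms gave different counts of called members. In P16 mice 15 of 25 positive members rose and 1 fell, leaving aside Mt2, which passed the filter on low counts through the group where it was high (16 rose of 26 with it). Of all genes tested 19.6% rose and 19% fell. In GFP mice 1 positive member rose and 7 fell, where 17.2% of all genes rose and 16.4% fell. The median log2 fold change of the positive members was 1.34 in P16 mice, with 0.00 over all genes, and -0.33 in GFP mice, with -0.01 over all genes. Without Mt2 the P16 median was 1.25. The 13 macrophage markers had a median of 1.09 in P16 mice, where their sum was at most 48.0 CPM at 0 h and 69.4 to 91.1 at 48 h. Marco and Timd4 were called higher there and Cd74 lower, and in GFP mice the marker median was -0.59. Their part in the members' medians was not tested. Among negative members the same 3, Ttr, Rbp4 and Fetub, fell in both arms and 0 rose. In P16 mice the 48 h libraries lay above all 0 h libraries for 16 positive members, Mt2 among them (25.5% of all genes did). In GFP mice they lay below for 8 (22.5% of all genes). In the opposite direction, they lay below for 2 positive members in P16 mice and above for 3 in GFP mice. The share of all genes in those 2 directions was not worked out.

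Without replicate 2 of the GFP mice at 0 h the count in GFP mice became 4 higher and 7 lower, with a median of 0.39. Of all 12549 genes in that fit 2058 were higher and 2009 lower. Lcn2, Orm2 and Fgl1 were then called higher beside Steap4. With both libraries that stood apart left out the count in GFP mice became 10 higher (Apcs, Fgl1, Hpx, Itih3, Lcn2, Orm1, Orm2, Saa1, Saa2 and Steap4) and 7 lower, median 0.43. That omission used the members' own values, so it shows only how the count depends on these libraries. In P16 mice the same omission gave 15 higher, Mt2 among them, and 3 lower (Pigr, Crp and Itih1), median 0.94. Over all 12449 genes of that fit, 2148 rose and 2107 fell in GFP mice, and 2458 rose and 2341 fell in P16 mice. Single omissions gave 1 to 4 rises in GFP mice and 11 to 17 in P16 mice, where the counts include Mt2 and were 11 without replicate 1 or replicate 3 at 0 h and 14 without replicate 2 at 48 h. Over all genes single omissions gave 1590 to 2172 rises in GFP mice and 2018 to 2630 in P16 mice.

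**Figure D2:**
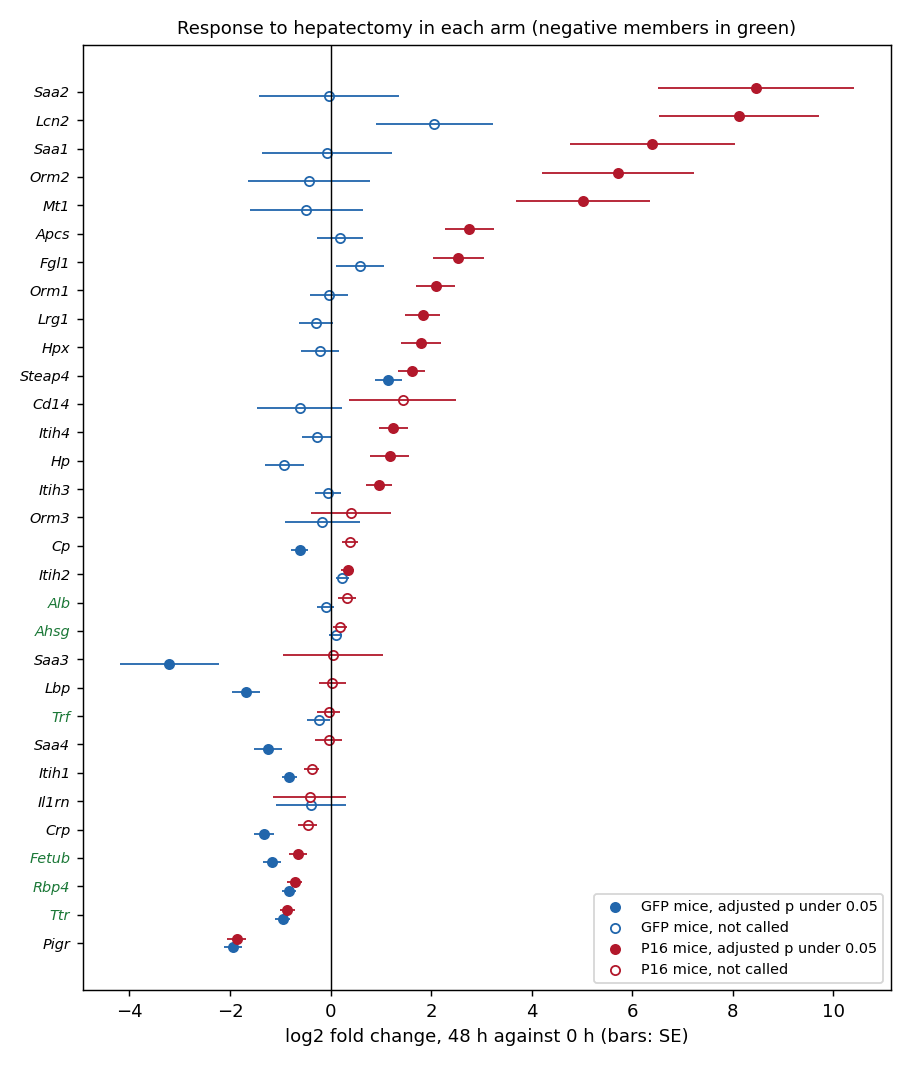
Log2 fold change (points) with its SE (bars) at 48 h against 0 h in GFP mice (blue) and P16 mice (red) for 31 members; filled points were called, and Mt2, with 0 reads in P16 mice at 0 h, is left out. The red points of Saa2, Lcn2, Saa1, Orm2 and Mt1 lie at 5.02 or above, whereas Pigr, Ttr, Rbp4 and Fetub lie below 0 in both arms.

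Saa1 (ENSMUSG00000074115, chr7:46740497-46742980, minus strand) and Saa2 (ENSMUSG00000057465, chr7:46751790-46754313, plus strand) encode the inducible serum amyloid A apolipoproteins, which travel on high density lipoprotein. Saa1 stood at 33.8, 99.1 and 60.8 CPM in P16 mice at 0 h and at 4010, 10217 and 2161 at 48 h. In GFP mice it stood at 71.6, 6413 and 445 at 0 h and at 2442, 1951 and 2230 at 48 h. Replicate 2 of the unoperated GFP mice thus lay above every operated GFP mouse, and the other 2 below. Saa1 rose in P16 mice by 6.40 on the log2 scale (SE 1.64, adjusted p = 0.0150), and in GFP mice the value was -0.07 (SE 1.29, adjusted p = 0.976). Without replicate 2 of the GFP mice at 0 h the GFP value was 3.10.

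Saa2 stood at 12.9, 20.4 and 17.0 CPM in P16 mice at 0 h and at 3808, 12019 and 1951 at 48 h. Its GFP values were 29.1, 5592 and 362 CPM at 0 h and 2180, 1713 and 1948 at 48 h. It rose in P16 mice by 8.46 (SE 1.94, adjusted p = 0.00899), while the GFP value was -0.03 (SE 1.39, adjusted p = 0.988), or 3.32 without replicate 2 at 0 h. The genes are 8.81 kb apart on opposite strands, and their transcripts were 94.4% identical over 606 aligned bases, so reads can be shared or lost between them. The ratio of Saa2 to Saa1 reads was 0.206 to 0.380 in P16 mice at 0 h and 0.903 to 1.18 at 48 h. Summed into 1 row, Saa1 and Saa2 rose in P16 mice by 7.13 (SE 1.76, adjusted p = 0.0125). Saa1 was no longer called with replicate 1 or 3 of the unoperated P16 mice omitted (adjusted p = 0.0567 and 0.0547). Replicate 2 of the P16 mice at 48 h left out, the values were 5.58 for Saa1 and 7.43 for Saa2, both called.

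Saa4 and Saa3, in the same cluster on chromosome 7, did not follow them. Saa4 (ENSMUSG00000040017, chr7:46727998-46732603, minus strand), the constitutive serum amyloid A, fell in GFP mice from 243, 310 and 272 CPM to 127, 106 and 116 (log2 change -1.24, SE 0.27, adjusted p = 0.00394). In P16 mice it stood at 233, 338 and 269 CPM before and 272, 394 and 152 after, which overlap. Saa3 (ENSMUSG00000040026, chr7:46711998-46715700, minus strand), which macrophages and other non-liver cells also make, was at 8.51, 116 and 11.6 CPM in GFP mice at 0 h and 3.52, 5.67 and 5.83 at 48 h. It fell by 3.21 (SE 0.99, adjusted p = 0.0363), a value carried by replicate 2, without which it was -1.01 (adjusted p = 0.0275). The call was lost without any single library of the other 3 groups, at adjusted p of 0.0502 to 0.116. Macrophage markers were highest in that same replicate 2, and their part in the Saa3 value was not tested. In P16 mice Saa3 stayed between 4.15 and 9.13 CPM.

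Orm1, Orm2 and Orm3 encode alpha-1-acid glycoproteins, carriers of basic drugs in plasma, and lie side by side on chromosome 4. Orm1 (ENSMUSG00000039196, chr4:63344560-63348163, plus strand) rose in P16 mice from 906, 1495 and 1111 CPM to 3822, 7558 and 3548 (log2 change 2.09, SE 0.39, adjusted p = 0.00175). In GFP mice it stood at 1115, 2889 and 1437 CPM at 0 h and 1759, 1736 and 1848 at 48 h, which overlap. Orm2 (ENSMUSG00000061540, chr4:63362449-63365878, plus strand) started far lower in P16 mice, at 9.53, 16.5 and 8.99 CPM, and reached 446, 1054 and 355. It rose there by 5.72 (SE 1.51, adjusted p = 0.0170), a call lost without replicate 1 or 3 at 0 h (adjusted p = 0.0617 and 0.0611), and the value was 5.10 without replicate 2 at 48 h. In GFP mice Orm2 stood at 12.7, 1067 and 78.3 CPM at 0 h and 281, 259 and 319 at 48 h (log2 change -0.43, adjusted p = 0.822). Without replicate 2 at 0 h that value was 2.66 and was called (adjusted p = 0.0439). Orm3 (ENSMUSG00000028359, chr4:63356162-63359511, plus strand) was called in 0 of the 5 comparisons and stayed between 1.56 and 20.8 CPM. Orm1 and Orm2 transcripts were 91.0% identical and Orm2 and Orm3 89.0%, so their split is uncertain. As a sum the 3 genes rose in P16 mice by 2.24 (SE 0.49, adjusted p = 0.00604).

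Lcn2 (ENSMUSG00000026822, chr2:32384633-32388252, minus strand) encodes lipocalin 2, which withholds iron from bacteria by binding siderophores. It stood at 0.953, 4.93 and 1.42 CPM in P16 mice at 0 h and at 607, 1141 and 370 at 48 h, with no overlap. It rose by 8.12 (SE 1.59, adjusted p = 0.00404), or by 9.20 without replicate 2 at 0 h. In GFP mice it stood at 3.24, 155 and 12.9 CPM at 0 h and 219, 289 and 210 at 48 h, also with no overlap. The GFP value was 2.06 (SE 1.16, adjusted p = 0.218), and 4.89 with an adjusted p of 0.00395 without replicate 2 at 0 h. Neutrophils also hold Lcn2 protein. The 12 neutrophil markers summed to 0.159 to 0.283 CPM in P16 mice at 0 h and 1.03 to 1.60 at 48 h. In GFP mice they summed to 0.602, 3.18 and 0.898 CPM at 0 h and 0.652 to 0.929 at 48 h. Their part in the Lcn2 values was not tested.

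Mt1 (ENSMUSG00000031765, chr8:94179082-94180327, plus strand) and Mt2 (ENSMUSG00000031762, chr8:94172664-94173568, plus strand) encode metallothioneins, small proteins that bind zinc and copper. Mt1 rose in P16 mice from 28.1, 40.1 and 9.20 CPM to 449, 1788 and 284 (log2 change 5.02, SE 1.34, adjusted p = 0.0177). It was no longer called without replicate 1 or 3 at 0 h (adjusted p = 0.0587 and 0.0601), and the value was 3.83 without replicate 2 at 48 h. In GFP mice Mt1 stood at 26.6, 366 and 33.3 CPM at 0 h and 67.7, 157 and 81.6 at 48 h, which overlap. Mt2 had few reads in the table. It had 0 reads in all P16 libraries at 0 h and 11, 105 and 12 at 48 h, so that its mean of 2.53 CPM at 48 h was at least 12.0-fold higher than a floor of 3 counts per library. Without replicate 2 at 48 h the mean was 0.555 CPM, at least 2.63-fold higher than the same floor. Of the Mt2 exon bases 73.5% are shared with an antisense gene, Gm45774, which had at most 6 reads in any library. Reads in shared bases may have been set aside as ambiguous, so the Mt2 level is uncertain.

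**Figure D3:**
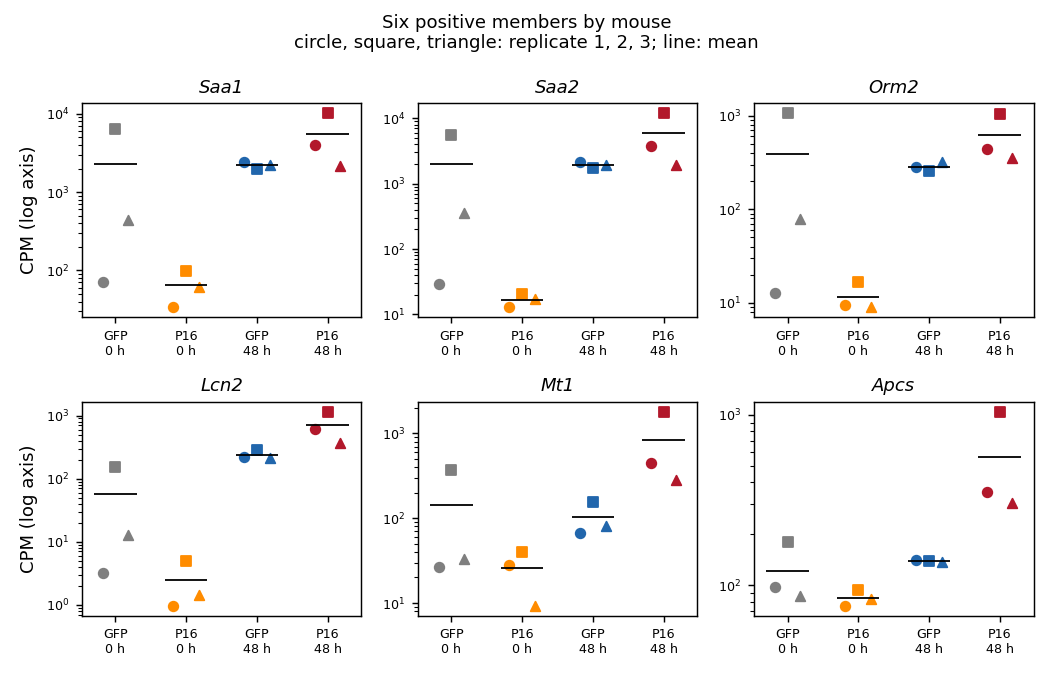
CPM on a log axis for Saa1, Saa2, Orm2, Lcn2, Mt1 and Apcs in each mouse of the 4 groups; markers are replicates and lines group means. The square of the GFP group at 0 h lies above the other mice of that group in all 6 genes, at 6413 CPM for Saa1 against 71.6 and 445.

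Hp and Hpx encode haptoglobin, which binds free hemoglobin, and hemopexin, which binds heme. Hp (ENSMUSG00000031722, chr8:109575128-109579172, minus strand) rose in P16 mice from 2986, 4050 and 3773 CPM to 6650, 12744 and 5018 (log2 change 1.18, SE 0.39, adjusted p = 0.0358). The Hp call was lost without replicate 2 at 48 h (0.70, adjusted p = 0.144), without any single P16 mouse at 0 h (adjusted p = 0.0685 to 0.112), and without replicate 1 or 2 of the GFP mice at 48 h (0.0511 and 0.0503). Hpx (ENSMUSG00000030895, chr7:105591613-105600137, minus strand) rose in P16 mice from 3016, 4339 and 3817 CPM to 11619, 18200 and 9071 (log2 change 1.80, SE 0.39, adjusted p = 0.00396). Neither was called in GFP mice in the main fit. There Hp stood at 3940, 10556 and 5221 CPM at 0 h and 3759, 3220 and 3464 at 48 h, all below the unoperated mice. Hpx stood at 4352, 12949 and 5288 CPM at 0 h and 6216, 6819 and 6488 at 48 h. In GFP mice Hp was called lower with the replicate block, without GFP replicate 1 at 0 h and without P16 replicate 2 at 48 h. Hpx was called higher in GFP mice with both libraries that stood apart left out.

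The neighbouring pentraxin genes on chromosome 1 differed. Apcs (ENSMUSG00000026542, chr1:172893961-172895041, minus strand), for serum amyloid P, rose in P16 mice from 75.2, 93.4 and 82.5 CPM to 354, 1038 and 304. The log2 fold change was 2.75 (SE 0.49, adjusted p = 0.00205), or 1.98 without replicate 2 at 48 h. In GFP mice Apcs stood at 97.7, 179 and 86.6 CPM at 0 h and 140, 138 and 136 at 48 h, within the range of the unoperated mice. Crp (ENSMUSG00000037942, chr1:172698055-172833031, plus strand), for C-reactive protein, fell in GFP mice from 432, 437 and 415 CPM to 193, 136 and 182 (log2 change -1.33, SE 0.20, adjusted p = 6.74e-05). In P16 mice Crp stood at 425, 475 and 450 CPM at 0 h and 294, 460 and 229 at 48 h (log2 change -0.46, SE 0.20, adjusted p = 0.0750). Crp was called lower in P16 mice too without replicate 2 at 48 h (-0.78, adjusted p = 0.00112), with both libraries that stood apart left out, with limma-voom and with no filter. The genes are 60.9 kb apart.

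Lrg1, Fgl1 and Steap4 were called higher after hepatectomy in P16 mice. Lrg1 (ENSMUSG00000037095, chr17:56119678-56122001, minus strand), for the leucine-rich alpha-2-glycoprotein, rose from 332, 608 and 459 CPM to 1362, 2483 and 1149 (log2 change 1.84, SE 0.35, adjusted p = 0.00177). In GFP mice it stood at 413, 893 and 633 CPM at 0 h and 548, 564 and 477 at 48 h. Fgl1 (ENSMUSG00000031594, chr8:41191434-41215156, minus strand), for the hepatocyte-secreted fibrinogen-like protein 1, rose from 195, 308 and 327 CPM to 1396, 2139 and 1297 (log2 change 2.54, SE 0.51, adjusted p = 0.00387). In GFP mice Fgl1 stood at 246, 923 and 278 CPM at 0 h and 735, 722 and 716 at 48 h. Steap4 (ENSMUSG00000012428, chr5:7960457-7982213, plus strand), a metalloreductase of iron and copper, was the positive member that rose in both arms. Its levels were 36.7, 54.4 and 41.1 CPM in GFP mice at 0 h and 107, 98.5 and 87.7 at 48 h (log2 change 1.14, SE 0.27, adjusted p = 0.00674). In P16 mice Steap4 went from 49.6, 45.1 and 79.9 CPM to 208, 213 and 113 (log2 change 1.61, SE 0.27, adjusted p = 0.000641).

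The inter-alpha-trypsin inhibitor heavy chains split by chain. Itih4 (ENSMUSG00000021922, chr14:30886476-30902353, plus strand) rose in P16 mice from 1232, 1556 and 1566 CPM to 3080, 4793 and 2483 (log2 change 1.25, SE 0.29, adjusted p = 0.00412). Itih3 (ENSMUSG00000006522, chr14:30908572-30923760, minus strand) rose there from 1038, 905 and 1098 CPM to 1669, 2714 and 1541 (log2 change 0.96, SE 0.26, adjusted p = 0.00850). Neither was called in GFP mice, where Itih4 stood at 1505, 3313 and 1653 CPM at 0 h and 1855, 1747 and 1754 at 48 h. Itih3 stood at 913, 1937 and 1085 CPM and then 1328, 1217 and 1240. Itih1 (ENSMUSG00000006529, chr14:30929180-30943289, minus strand), next to Itih3, fell in GFP mice from 803, 701 and 846 CPM to 454, 427 and 449 (log2 change -0.82, SE 0.15, adjusted p = 0.000271). In P16 mice Itih1 went from 783, 788 and 849 CPM to 560, 774 and 534 (log2 change -0.37, adjusted p = 0.0507), and without replicate 2 at 48 h Itih1 was called lower there (-0.56, adjusted p = 0.00443). Itih2 (ENSMUSG00000037254, chr2:10094593-10131396, minus strand) rose in P16 mice from 888, 897 and 888 CPM to 1087, 1275 and 1021, by 0.34 (SE 0.13, adjusted p = 0.0495). That Itih2 call held in 6 of 20 alternative fits and was lost without any single library except GFP replicate 2 at 0 h and P16 replicate 3 at 48 h, with adjusted p up to 0.169. In GFP mice Itih2 stood at 962, 832 and 952 CPM and then 1001, 1145 and 1078.

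Cp, Lbp and Pigr fell in GFP mice. Cp (ENSMUSG00000003617, chr3:19957054-20009145, plus strand), for the copper ferroxidase ceruloplasmin, went from 838, 1126 and 895 CPM to 644, 599 and 621 (log2 change -0.62, SE 0.16, adjusted p = 0.00621). In P16 mice Cp stood at 906, 905 and 814 CPM and then 1165, 1391 and 888 (log2 change 0.39, adjusted p = 0.0614). Cp was called higher there with DESeq2, with no filter, without GFP replicate 2 at 0 h and without P16 replicate 3 at 48 h. Lbp (ENSMUSG00000016024, chr2:158306493-158332852, plus strand), for the lipopolysaccharide binding protein, went in GFP mice from 75.1, 127 and 80.9 CPM to 35.1, 26.9 and 26.4 (log2 change -1.68, SE 0.27, adjusted p = 0.000625). In P16 mice Lbp stood at 67.5, 73.2 and 70.4 CPM and then 68.7, 102 and 45.9, which overlap. Pigr (ENSMUSG00000026417, chr1:130826684-130852249, plus strand), the receptor that carries immunoglobulin A across epithelia, was the positive member that fell in both arms. Pigr levels were 1702, 1242 and 1780 CPM in GFP mice at 0 h and 482, 370 and 377 at 48 h (log2 change -1.94, SE 0.19, adjusted p = 2.03e-07). In P16 mice they were 1633, 1997 and 1565 and then 458, 585 and 384 (log2 change -1.86, SE 0.19, adjusted p = 3.09e-07).

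Il1rn (ENSMUSG00000026981, chr2:24336853-24351494, plus strand), the interleukin-1 receptor antagonist, and Cd14 (ENSMUSG00000051439, chr18:36725067-36726798, minus strand), a lipopolysaccharide co-receptor, were near the limit of the depth. Il1rn had 3 to 41 reads in a library and Cd14 0 to 23. Both were highest in replicate 2 of the GFP mice at 0 h, and neither was called in any of the 5 comparisons.

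Of the 6 negative members 3 fell in both arms. Ttr (ENSMUSG00000061808, chr18:20665280-20674321, plus strand), for transthyretin, the carrier of thyroxine and of retinol binding protein, fell in GFP mice from 8749, 7054 and 8556 CPM to 4356, 3958 and 4274 (log2 change -0.95, SE 0.14, adjusted p = 4.70e-05). In P16 mice Ttr fell from 7751, 8271 and 7452 CPM to 4070, 4463 and 4412 (log2 change -0.86, SE 0.14, adjusted p = 0.000115). Rbp4 (ENSMUSG00000024990, chr19:38116629-38125281, minus strand), the plasma carrier of retinol, fell from 3672, 3838 and 3890 CPM to 2125, 2078 and 2219 in GFP mice (log2 change -0.83, SE 0.15, adjusted p = 0.000220). In P16 mice Rbp4 fell from 3269, 4150 and 3481 CPM to 1904, 2378 and 2363 (log2 change -0.71, SE 0.14, adjusted p = 0.000741). For both genes every operated mouse lay below every unoperated mouse of its arm.

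Fetub (ENSMUSG00000022871, chr16:22918334-22939778, plus strand), for fetuin B, an inhibitor of astacin proteases, fell in GFP mice from 821, 766 and 975 CPM to 370, 378 and 393 (log2 change -1.17, SE 0.17, adjusted p = 4.29e-05). In P16 mice Fetub fell from 782, 894 and 714 CPM to 401, 678 and 444 (log2 change -0.65, SE 0.17, adjusted p = 0.00602). Its neighbour Ahsg (ENSMUSG00000022868, chr16:22891277-22899449, plus strand), for fetuin A, an inhibitor of calcification, lies 18.9 kb away and was called in 0 of the 5 comparisons. Ahsg ranged only from 5385 to 7013 CPM over the 12 libraries, and its log2 fold changes after hepatectomy were 0.10 (SE 0.14) in GFP mice and 0.18 (SE 0.14) in P16 mice.

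Alb (ENSMUSG00000029368, chr5:90460897-90476602, plus strand), for albumin, was not called either when all 12 libraries were used. It stood at 69266, 44194 and 60201 CPM in GFP mice at 0 h, 49005, 48988 and 42968 in P16 mice at 0 h, 50304, 55328 and 56452 in GFP mice at 48 h and 61401, 56852 and 57894 in P16 mice at 48 h. The unoperated GFP mouse with the high positive members had the lowest Alb of its group. The log2 fold change of Alb after hepatectomy was -0.10 (SE 0.17) in GFP mice and 0.32 (SE 0.17) in P16 mice. With both libraries that stood apart left out, Alb was called higher in P16 mice, at 0.35 (SE 0.13, adjusted p = 0.0435). Albumin reads made up 3.96 to 6.94% of all reads in genes. Trf (ENSMUSG00000032554, chr9:103204001-103230444, minus strand), for the iron carrier transferrin, was not called after hepatectomy in either arm over all 12 libraries, and every P16 mouse lay above every GFP mouse of the same time. It stood at 80.7, 82.9 and 95.4 CPM in GFP mice and 183, 153 and 154 in P16 mice at 0 h, and at 87.1, 58.0 and 74.6 and 110, 232 and 136 at 48 h. With both libraries that stood apart left out, Trf was called lower after hepatectomy in P16 mice, at -0.40 (SE 0.15, adjusted p = 0.0479). Of the Trf exon bases 63.5% are shared with another gene on the same strand, Gm20425, which had 0 reads in every library, so the Trf count may hold only part of its reads.

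**Figure D4:**
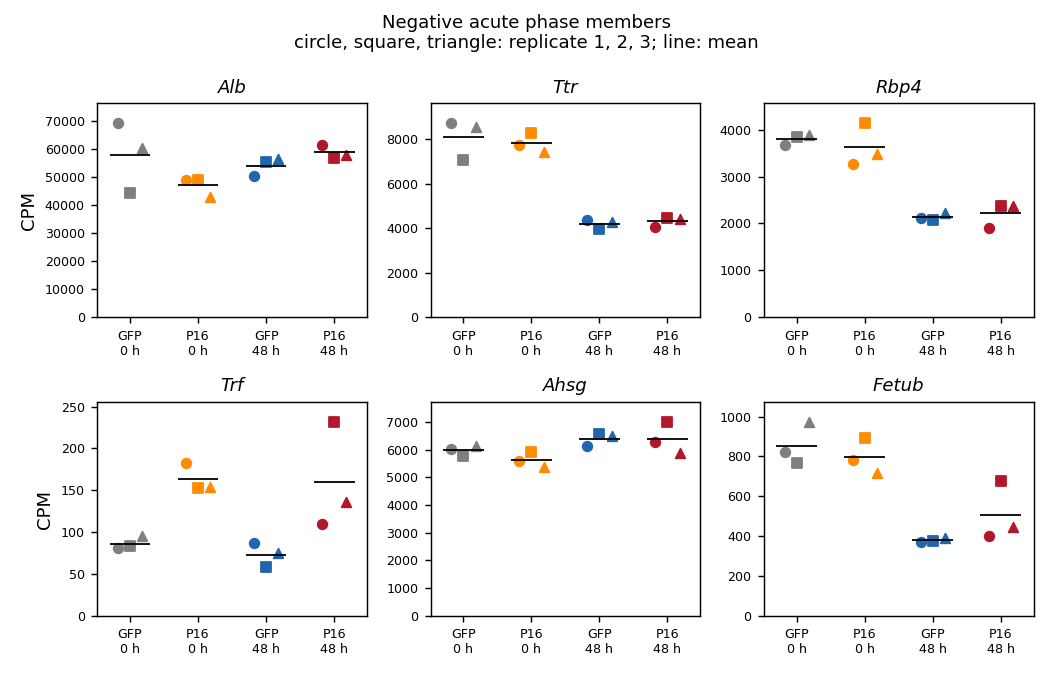
CPM of the 6 negative members in each mouse, on axes that start at 0; markers are replicates and lines group means. Ttr, Rbp4 and Fetub are lower at 48 h in both arms, Alb and Ahsg were called in 0 comparisons over all 12 libraries, and for Trf every P16 mouse lies above every GFP mouse of the same time.

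At 48 h, 5 positive members were higher in P16 than in GFP mice and 0 were lower, where 1.24% of all genes tested were higher and 1.04% lower. The 5 were Cp, Crp, Lbp, Lrg1 and Saa4, and Trf was higher among the 6 negative members. The P16 libraries lay above all GFP libraries for 18 of 26 positive members (14.8% of all genes), and the median log2 fold change was 1.05, with 0.00 over all genes. Mt2 is counted among the 18 and in the median. The log2 fold change was 0.89 for Cp (SE 0.16, adjusted p = 0.0127), 0.94 for Crp (SE 0.20, adjusted p = 0.0258) and 1.29 for Lbp (SE 0.27, adjusted p = 0.0373). It was 1.65 for Lrg1 (SE 0.35, adjusted p = 0.0385), 1.23 for Saa4 (SE 0.27, adjusted p = 0.0408) and 1.12 for Trf (SE 0.23, adjusted p = 0.0306). Cp, Crp, Lbp and Saa4 fell in GFP mice and were not called in P16 mice after hepatectomy in the main fit, whereas Lrg1 rose in P16 mice.

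These calls rest on few mice. With replicate 2 of the operated P16 mice left out, 0 positive members were called, with a median of 0.65, and the log2 fold changes were 0.72 for Cp, 0.61 for Crp, 0.95 for Lbp, 1.24 for Lrg1, 0.86 for Saa4 and 0.75 for Trf, at adjusted p of 0.0808 to 0.154. Without any single GFP mouse at 48 h, 0 positive members and not Trf were called either. With replicate 2 of the GFP mice at 0 h left out of the fit, 12 positive members were called, and 2 without replicate 3 of either arm at 0 h. Calls over all genes moved in the same way, from 280 with all libraries to 21 without P16 replicate 2 at 48 h. They numbered 31, 28 and 10 without GFP replicate 1, 2 or 3 at 48 h. Without GFP replicate 2 at 0 h they numbered 665, and without replicate 3 at 0 h 209 (GFP) and 216 (P16). Such changes are therefore not particular to the members. The members with the widest range were not called between the arms at 48 h. Their log2 fold changes were 1.31 for Saa1 (SE 1.32), 1.61 for Saa2 (SE 1.43), 1.11 for Orm2 (SE 1.23), 1.56 for Lcn2 (SE 1.14) and 3.04 for Mt1 (SE 1.21). Apcs at 2.04 (SE 0.47, adjusted p = 0.0663) and Orm1 at 1.48 (SE 0.38, adjusted p = 0.0766) came closer, with no overlap between the groups. With both libraries that stood apart left out, 9 positive members were called, among them Apcs at 1.25 (SE 0.12, adjusted p = 8.28e-06) and Orm1 at 1.04 (SE 0.17, adjusted p = 0.00452). Of all genes 145 of 12449 were called in that fit. Since the libraries were picked by these members' values, the smaller SE and the calls are not independent support. The wide-range values in that fit were 0.48 for Saa1, 0.56 for Saa2, 0.48 for Orm2, 1.03 for Lcn2 and 1.84 for Mt1, and they were not called, nor were Lrg1 and Saa4.

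**Figure D5:**
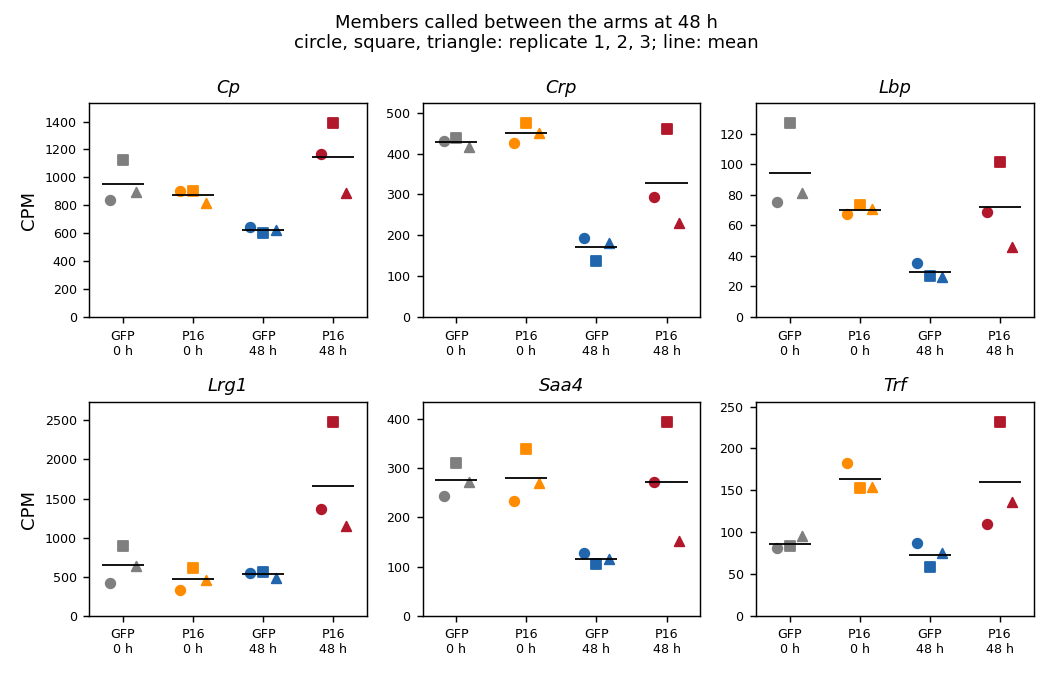
CPM of the 6 members called between the arms at 48 h in each mouse of the 4 groups, on axes that start at 0; markers are replicates and lines group means. The P16 mice at 48 h lie above the GFP mice at 48 h in every panel, and replicate 2 (square) is the highest of them.

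Before surgery 0 positive and 0 negative members were called between the arms, where 0.122% of all genes were higher and 0.0979% lower in P16 mice. At an unadjusted p under 0.05 there were 8 of 26 positive members and 1 of 6 negative members, against 1652 of the 12257 genes. DESeq2 called 4 and 1, with 214 over all genes. With limma-voom the counts were 0 and 0, with 17 over all genes. The median log2 fold change of the positive members was -0.60, with 0.00 over all genes, and -0.12 without replicate 2 of the GFP mice. The values of the wide-range members were -5.16 for Saa1 (SE 1.55), -6.89 for Saa2 (SE 1.82), -5.04 for Orm2 (SE 1.47), -4.50 for Lcn2 (SE 1.42) and -2.46 for Mt1. With both libraries that stood apart left out they were -2.01, -3.55, -1.96, -1.67 and -0.22 in the same order. For Saa1 the GFP mice at 6413 and 445 CPM lay above the P16 range of 33.8 to 99.1, and the third GFP mouse, at 71.6, lay within it. Of the macrophage markers 12 of 13 had an unadjusted p under 0.05 in the same comparison, with a median log2 fold change of -1.67, and Cd74 alone was called. Their part in the members' values was not tested. Trf was higher in 3 of 3 P16 mice at 0 h, at 0.92 (SE 0.23, adjusted p = 0.137), and it was called with both libraries left out, at 0.88 (SE 0.16, adjusted p = 0.0211).

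The responses to hepatectomy were compared between the arms directly. Of the members 0 were called in this test, where 0.0326% of all genes had a higher and 0.0653% a lower response in P16 mice. At an unadjusted p under 0.05 there were 20 of 26 positive members and 1 of 6 negative members, against 1451 of the 12257 genes. DESeq2 called 12 positive members, with 225 over all genes, and limma-voom 0, with 1 over all genes. The median difference of the positive members was 1.98 on the log2 scale, with 0.00 over all genes. It was 0.84 with both libraries that stood apart left out, where 5 members, Apcs, Hp, Hpx, Lbp and Orm1, were called. Of all genes 28 of 12449 were called in that fit, whose choice of libraries used these members' values. With all 12 libraries the lowest adjusted p belonged to Cp, whose difference was 1.01 (SE 0.23, adjusted p = 0.0706). The differences were 1.71 for Lbp (SE 0.38), 2.12 for Lrg1 (SE 0.48) and 6.06 for Lcn2 (SE 1.82), and with both libraries left out they were 1.11, 1.42 and 2.70. A response called in P16 mice and not in GFP mice is therefore not shown by this test to differ between them.

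Other genes linked to the response gave the following counts. They are not all genes of plasma proteins. Ifitm3 and Ly6e encode membrane proteins, and Cebpd a transcription factor that is also in the transcription factor list below. Of 18 further acute phase genes tested, 6 were higher in P16 than in GFP mice at 48 h (1.24% of all genes were). They were C3, Fga, Fgb, Fgg, Ifitm3 and Serpina3m. The fibrinogen chain genes had log2 fold changes of 1.24 for Fga (SE 0.22, adjusted p = 0.0116), 1.45 for Fgb (SE 0.22, adjusted p = 0.00662) and 1.44 for Fgg (SE 0.22, adjusted p = 0.00662). After hepatectomy 8 of the 18 rose and 4 fell in P16 mice (19.6% and 19% of all genes), and 1 rose and 9 fell in GFP mice (17.2% and 16.4%). Fgb fell in GFP mice by 0.71 (SE 0.22, adjusted p = 0.0184) and rose in P16 mice by 0.78 (SE 0.22, adjusted p = 0.00928). Fgg did likewise, at -0.82 and 0.75. Serpina3n, a serine protease inhibitor, rose in P16 mice by 1.62 (SE 0.30, adjusted p = 0.00122), and Hamp, the iron hormone hepcidin, fell there by 2.45 (SE 0.69) and in GFP mice by 2.38 (SE 0.69). At 0 h 0 of the 18 were called, with 4 at an unadjusted p under 0.05, against 1652 of the 12257 genes. Without replicate 2 of the operated P16 mice, Fgb and Fgg were at 0.38 and 0.37 after hepatectomy and not called (adjusted p = 0.0746 and 0.0922), and the Fgb fall in GFP mice was not called without replicate 2 at 0 h or replicate 2 or 3 at 48 h (0.0539 to 0.0787). Hamp was not called in either arm in 4 of the 6 omissions of a mouse compared, at adjusted p of 0.0571 to 0.0977.

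Another list held 14 further genes known or thought to fall in inflammation, most of them for plasma proteins. Of these 10 fell and 1 rose in GFP mice after hepatectomy, and 8 fell and 2 rose in P16 mice. Of all genes 16.4% fell and 17.2% rose in GFP mice, and 19% fell and 19.6% rose in P16 mice. Apoa2, an apolipoprotein of high density lipoprotein, fell by 1.49 (SE 0.20) in GFP and 1.30 (SE 0.20) in P16 mice, and Pon1, paraoxonase, by 1.34 (SE 0.17) and 1.26 (SE 0.17). Apoa4, an apolipoprotein, rose by 4.06 (SE 0.33) and 3.55 (SE 0.33). Apoa4 was the only gene of this list called between the arms at 48 h (log2 change -1.31, SE 0.30, adjusted p = 0.0469).

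Il6, the ligand, had 0 reads in 11 of 12 libraries and 5 in the remaining GFP library at 48 h. Of 17 tested genes of the interleukin-6 and STAT3 path, 1 was called between the arms at 48 h, Bcl3, an NF-kB cofactor, at 0.77 (SE 0.18, adjusted p = 0.0360). Of all genes 1.24% were higher and 1.04% lower in that comparison. Stat3 rose in P16 mice from 72.5, 68.5 and 73.8 CPM to 137, 112 and 100 (log2 change 0.70, SE 0.14, adjusted p = 0.000536), and its GFP value was 0.21 (SE 0.14, adjusted p = 0.265). Socs3, the feedback inhibitor induced by STAT3, stood at 37.5, 71.2 and 35.7 CPM in P16 mice at 48 h and at 16.7, 12.4 and 11.1 in GFP mice, with no overlap (log2 change 1.83, SE 0.58, adjusted p = 0.142). The receptor gene Il6ra fell in P16 mice by 0.72 (SE 0.21, adjusted p = 0.0122), and Il6st, for gp130, fell in GFP mice by 0.50 (SE 0.15, adjusted p = 0.0165). Osmr, the oncostatin M receptor, rose in P16 mice by 3.09 (SE 0.81, adjusted p = 0.00622), while Lifr, the receptor of leukemia inhibitory factor, fell by 1.72 (SE 0.20) there and 0.99 (SE 0.19) in GFP mice. In all, 4 of the 17 rose and 4 fell in P16 mice, where 19.6% of all genes rose and 19% fell. In GFP mice 0 rose and 2 fell, where 17.2% of all genes rose and 16.4% fell.

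Of 19 genes of the interleukin-1, TNF and NF-kB path, Il1r1 and Nfkbiz were higher in P16 mice at 48 h, where 1.24% of all genes were higher. Il1r1, the signalling receptor of interleukin-1, stood at 57.0, 81.9 and 37.5 CPM against 20.2, 18.8 and 19.4 in GFP mice (log2 change 1.59, SE 0.32, adjusted p = 0.0360). Il1r1 also rose in P16 mice after hepatectomy, by 1.19 (SE 0.32, adjusted p = 0.0129). In P16 mice 2 of the 19 rose and 3 fell (19.6% and 19% of all genes), and in GFP mice 1 and 3 (17.2% and 16.4%). The accessory receptor Il1rap fell by 1.42 (SE 0.16) in P16 and 1.38 (SE 0.16) in GFP mice. Among transcription factors of liver and acute phase genes, Cebpa was lower in P16 mice at 48 h, at -0.65 (SE 0.15, adjusted p = 0.0355), and so was Ppara, at -0.79 (SE 0.19, adjusted p = 0.0373). Cebpa fell after hepatectomy by 1.70 (SE 0.15) in P16 and 0.90 (SE 0.15) in GFP mice. Cebpb, which drives acute phase genes downstream of interleukin-6, was not called in any comparison and stayed between 75.3 and 146 CPM. Cebpd fell in GFP mice by 1.43 (SE 0.33, adjusted p = 0.00281), from 5.65, 12.7 and 5.31 CPM to 2.63, 3.11 and 3.12. In P16 mice Cebpd went from 3.97, 2.74 and 1.91 CPM to 4.10, 5.92 and 4.85 (log2 change 0.79, adjusted p = 0.0795). Exon bases shared with other genes amount to 20.7% for Cebpb, 15% for Cebpd and 34.8% for Apoa4, whose counts are uncertain to that extent. Of the 13 listed genes outside the members that were called between the arms at 48 h, 13 were lost without replicate 3 of the GFP mice at 48 h, 11 without replicate 2 of that group, 9 without replicate 1, and 11 without P16 replicate 2 at 48 h, all but Fgb and Fgg. Adjusted p then reached up to 0.294. Calls over all genes fell from 280 to 10, 28, 31 and 21 in the same order. After hepatectomy, Il1r1 was not called once replicate 1 of the unoperated P16 mice was omitted (adjusted p = 0.0543), Il6ra without replicate 3 of the operated ones (0.0719), and Il6st without replicate 2 of the GFP mice at 0 h or 48 h (0.0560 and 0.0968).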

How the data were processed

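The table that the authors deposited gives raw counts, whole numbers of reads per gene, for the 12 hepatocyte libraries. Per the submitters' processing notes, reads were handled with STAR 2.5.0c, HTSeq, Trim Galore, Picard and SAMtools on build mm10. Settings, strandedness of counting and annotation release: not given in the sources used here, so counts of antisense and overlapping genes are uncertain. Reads in no annotated feature (3.62 to 9.8% of a library) and ambiguous reads (4.87 to 8.8%) stayed out of library sizes and tests. Per the labels' protocols, RNA came from collagenase-perfused hepatocytes of at least 95% viability and purity. Positions come from GENCODE vM21 (GRCm38, the assembly of mm10).

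Groups come from the labels, and replicates are separate mice; within groups, libraries differed by more than counting noise (chi-square per degree of freedom at least 15.5). Genes were tested in edgeR 4.0.16 (R 4.3.3) by its quasi-likelihood F test, with robust dispersions, TMM scaling, filterByExpr and a model of 4 group means on all 12 libraries. The SE is the absolute log2 fold change divided by the square root of F. Benjamini-Hochberg adjustment covered all 12257 genes tested. Mt2 passed the filter mainly through the P16 libraries at 48 h, so its test is not counted as support. Counts and medians over 26 positive members, and counts under the alternatives, still include Mt2. The script was tested on simulated data. Alternatives were other scaling (RLE), members left out of library sizes, no filter, DESeq2 1.42.0, limma-voom (limma 3.58.1), only the groups compared, a replicate block, family sums, each library left out, and both libraries that stood apart left out. Members, lists and alternatives were chosen with earlier results of these data known. The text names every member and, from each list, up to 4 genes with the largest called changes, and Il6ra, Il6st, Stat3, Socs3, Cebpb and Cebpd always; not every value under that rule is printed. Il6, the exon shares and the fibrinogen genes were chosen after their values were seen. A result of the transcription factor list is not reported here.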

Additional observations from a re-analysis of the deposited data

Results flagged for a closer look

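C3, the central complement protein and an acute phase gene outside the 32 members, was the only gene examined here whose response to hepatectomy differed between the arms by a test of the difference itself. It stood at 5586, 8214 and 6204 CPM in GFP mice at 0 h and 5807, 5651 and 5488 at 48 h, and at 4210, 4841 and 4557 and then 8985, 13270 and 8184 in P16 mice. The response was larger in P16 mice by 1.40 on the log2 scale (SE 0.26, adjusted p = 0.0471, edgeR quasi-likelihood test). The call was lost with limma-voom and without replicate 3 of the GFP mice at 0 h, any single GFP mouse at 48 h, replicate 1 or 3 of the P16 mice at 0 h, or replicate 2 of the P16 mice at 48 h, where the adjusted p was 0.0677 to 0.123.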

How the results depend on the processing

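Of 73 log2 fold changes of single genes, 37 kept direction and call under every alternative. Called positive members between the arms at 48 h, 5 as reported, numbered 9 with DESeq2, 9 with both libraries that stood apart left out, 2 with no filter and 0 to 12 with each library left out; Trf, the negative member, was lost with only the groups compared (0), with the replicate block (0) and in some omissions (0 to 1). Calls over all genes at 48 h numbered 280 as reported, 707 with DESeq2, 145 with both libraries left out and 538 with no filter. Over single omissions they numbered 10 to 665. At 0 h DESeq2 called 4 positive members and 1 negative, only the groups compared gave 1 negative and both libraries left out 1 negative, with 0 and 0 to 1 over single omissions. The calls over all genes at 0 h were 214, 9 and 38 in that order. For the difference between the arms the counts of positive members were 12 with DESeq2, 5 with both libraries left out, 4 with the replicate block, 1 with no filter and 0 to 3 over single omissions. Called positive members after hepatectomy in GFP mice numbered 17 with both libraries left out and 7 to 11 over single omissions; in P16 mice they numbered 12 to 19, and negative members there 5 with both left out. Reversed signs in GFP mice after hepatectomy were Saa1 (1.93 with limma-voom, 1.34 with the replicate block, 3.09 with both left out, -0.63 to 3.10 over single omissions), Saa2 (2.34, 1.42, 3.31, and -0.61 to 3.32) and Orm2 (1.49, 0.82, 2.65, and -0.997 to 2.66). Over single omissions Alb ranged from -0.26 to 0.055 there, and Ttr between the arms from -0.14 to 0.0092 at 0 h and from -0.0009 to 0.0792 at 48 h. The causes were not tested. Replicates are separate mice, and the main fit did not pair them by number. Correlations of same-numbered libraries between groups, as deviations from group means, were -0.109 to 0.0627. Those of differently numbered libraries were -0.112 to 0.132. Such deviations sum to 0 within a group, so they cannot settle whether same-numbered mice were handled together. Il1rn, Cd14 and Mt2 were limited by depth.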
